A study of Homo sapiens with 8 samples.

Results

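In all, 9 human genes were followed through RNA sequencing of the prostate cancer cell lines DU145 and PC3. They are 8 metallothionein genes (MT1A, MT1E, MT1F, MT1G, MT1L, MT1M, MT1X and MT2A) and SLC30A1, the gene of a zinc exporter. The genes were taken by symbol from the deposited table, and each of the 9 symbols matched 1 row of the table's 57905 genes. All 9 were read in all 8 libraries. DU145 and PC3 are established lines, derived from a brain metastasis and a bone metastasis of prostate cancer. The libraries form 4 groups of 2: DU145 with an empty lentivirus (control), DU145 with a lentivirus carrying TRIB1, PC3 with the empty lentivirus, and PC3 with the TRIB1 lentivirus. All groups had therefore been exposed to a lentivirus, and no library came from untouched cells. The promoter that drove TRIB1, and whether the cells were clones or pools, are not given in the sources used. The labels also leave unsaid whether the replicates were separate cultures, so each p-value reflects library-to-library spread alone, and that spread may be technical.

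Metallothioneins are small cysteine-rich proteins that bind zinc, copper and cadmium, and most of the human genes lie next to one another on chromosome 16. When zinc rises, the transcription factor MTF1 binds short metal response elements in front of the metallothionein genes and of SLC30A1 and raises their transcription. Metallothioneins then hold the metal inside the cell, while SLC30A1 (ZnT1) moves it out across the plasma membrane. Normal prostate epithelium is known for its high zinc content, and prostate cancer for its loss. MT1L is listed as a processed transcript, with no protein assigned.

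The metal response element is the feature that links both arms, so the 250 bases before the RefSeq gene start (GRCh38.p14) are shown for the 3 members that the promoter table held. Each is written 5′ to 3′ on the gene's own strand, and capitals mark the letters TGCGCNC or TGCACNC, the core of the element, searched on both strands. MT2A lies at chr16:56608334-56608583 on the plus strand, MT1X at chr16:56682220-56682469 on the plus strand and SLC30A1 at chr1:211579162-211579411 on the minus strand.
MT2A: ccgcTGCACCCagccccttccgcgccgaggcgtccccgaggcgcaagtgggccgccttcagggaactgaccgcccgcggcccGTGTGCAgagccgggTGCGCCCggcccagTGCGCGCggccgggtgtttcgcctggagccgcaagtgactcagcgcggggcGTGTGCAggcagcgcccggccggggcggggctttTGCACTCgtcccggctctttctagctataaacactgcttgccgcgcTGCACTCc
MT1X: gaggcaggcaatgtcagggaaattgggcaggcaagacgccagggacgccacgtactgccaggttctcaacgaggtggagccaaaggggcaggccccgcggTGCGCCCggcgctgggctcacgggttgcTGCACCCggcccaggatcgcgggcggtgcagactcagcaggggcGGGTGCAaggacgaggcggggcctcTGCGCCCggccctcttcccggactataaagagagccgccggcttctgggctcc
SLC30A1: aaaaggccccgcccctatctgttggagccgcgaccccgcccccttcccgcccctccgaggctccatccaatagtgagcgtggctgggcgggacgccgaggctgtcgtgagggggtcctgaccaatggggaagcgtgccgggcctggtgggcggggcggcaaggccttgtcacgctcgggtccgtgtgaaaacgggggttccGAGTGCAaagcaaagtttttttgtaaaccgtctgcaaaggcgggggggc
MT2A held 7 matches, MT1X 4 and SLC30A1 1, and no matches overlapped. The 1 match in SLC30A1 was on the opposite strand, from position -49 to -43 counted from the start. Of 35116 RefSeq promoters of the same length, 24.8% held at least 1 match (16.8% TGCGCNC and 9.9% TGCACNC). At least 4 matches were found in 130 of them (0.37%) and at least 7 in 11 (0.0313%). Their GC content was 73.2% for MT2A, 70.0% for MT1X and 66.4% for SLC30A1. A match is a run of letters and not a measured binding site. GENCODE 29 puts the start of SLC30A1 419 bases further downstream, and lists starts of MT2A and MT1X upstream of the RefSeq ones.

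The metallothionein genes are near copies of one another, which bears on every value below. Coding sequences from GENCODE 29 show this for MT2A, the most abundant member in both lines, and MT1E and MT1X, with capitals at the bases that differ from MT2A.
MT2A: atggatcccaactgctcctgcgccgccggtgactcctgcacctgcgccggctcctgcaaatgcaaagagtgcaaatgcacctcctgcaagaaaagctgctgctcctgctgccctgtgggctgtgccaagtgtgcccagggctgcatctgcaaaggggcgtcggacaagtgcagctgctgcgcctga
MT1E: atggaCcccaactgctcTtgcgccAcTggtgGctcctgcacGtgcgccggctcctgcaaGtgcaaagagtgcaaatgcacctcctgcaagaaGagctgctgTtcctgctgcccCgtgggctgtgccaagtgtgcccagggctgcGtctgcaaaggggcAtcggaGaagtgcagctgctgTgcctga
MT1X: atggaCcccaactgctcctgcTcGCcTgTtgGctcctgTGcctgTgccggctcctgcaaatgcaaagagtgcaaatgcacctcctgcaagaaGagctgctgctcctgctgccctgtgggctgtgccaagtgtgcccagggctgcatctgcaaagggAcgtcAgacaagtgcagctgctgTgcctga
All 7 protein-coding metallothionein members (MT1L has no coding sequence) had coding sequences of 186 bases, or 62 codons with the stop, of which 20 were cysteine codons (TGC or TGT). MT1A, MT1E and MT1X each matched MT2A at 92.5% of coding bases, and identity over all 21 pairs ran from 88.7% to 95.2%. Over 36 pairs of metallothionein transcripts, with the noncoding MT1L and MT1DP included, the longest exact run that a pair shared was between 21 and 96 bases (median 41). The longest was that of MT1G and MT1X, at 96 bases, and MT1X and MT2A shared 63. The read length and the handling of reads that fit several genes are not given in those sources, so the split of signal among members is uncertain.

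TRIB1 itself was checked first in every library. Its level in TPM, the deposited unit (transcript abundance per gene length, scaled to a fixed total), was 10.1 and 7.94 TPM in DU145 control and 69.4 and 62.3 TPM in DU145 TRIB1. In PC3 control it was 45.1 and 50.8 TPM, and in PC3 TRIB1 241 and 245 TPM. The labels held in all 8 libraries, and TRIB1 rose by 2.75 on the log2 scale in DU145 (SE 0.12, limma adjusted p = 0.0018) and by 2.32 in PC3 (SE 0.12, adjusted p = 0.00095). Here and below, a log2 change is of TPM + 1, which understates changes of low genes, and a gene rose or fell where its adjusted p was below 0.05 over all 25982 genes tested. The series' own cutoff also asks for a log2 change over 1.

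Each library listed between 30398 and 31694 genes above 0. TPM keeps no read totals, so the depth of the libraries is unknown and counting intervals are not given. The first principal component (71.6% of the variance of the 2000 most variable genes) separated the lines, and the second (10.3%) set DU145 TRIB1 library 2 apart from the other 7 libraries. Markers of simple epithelium summed to at least 517 TPM in every library. Leukocyte markers summed to at most 5.19 TPM, endothelial markers to at most 3.56 and fibroblast markers to at most 5.65. Of the prostate luminal markers, KLK3 (prostate-specific antigen) was listed at 0 in 7 libraries and at 0.186 TPM in 1. In bulk RNA, fewer cells of a kind and less RNA per cell cannot be told apart.

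MT2A, the main metallothionein of most human cells, was lower with TRIB1 in both lines. The DU145 libraries gave 703 and 680.5 TPM for the controls against 379.6 and 379.4 TPM for TRIB1. The PC3 libraries gave 992 and 897 TPM for the controls against 552 and 594 TPM for TRIB1. In neither line did the groups overlap, and the control with the lower value was still well above the higher TRIB1 library. MT2A fell by 0.86 on the log2 scale in DU145 (SE 0.07, limma adjusted p = 0.00534), to 54.8% of the control mean, and by 0.72 in PC3 (SE 0.07, adjusted p = 0.0028), to 60.6%. The difference between these changes was -0.14 (SE 0.09, adjusted p = 0.392), which does not show that they were equal. Neither change reached the fold of the series' cutoff, which 1.12% of tested genes met in DU145 and 5.2% in PC3, and no other member met it. Without DU145 TRIB1 library 2, the DU145 change was -0.86 (adjusted p = 0.0313).

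**Figure D1:**
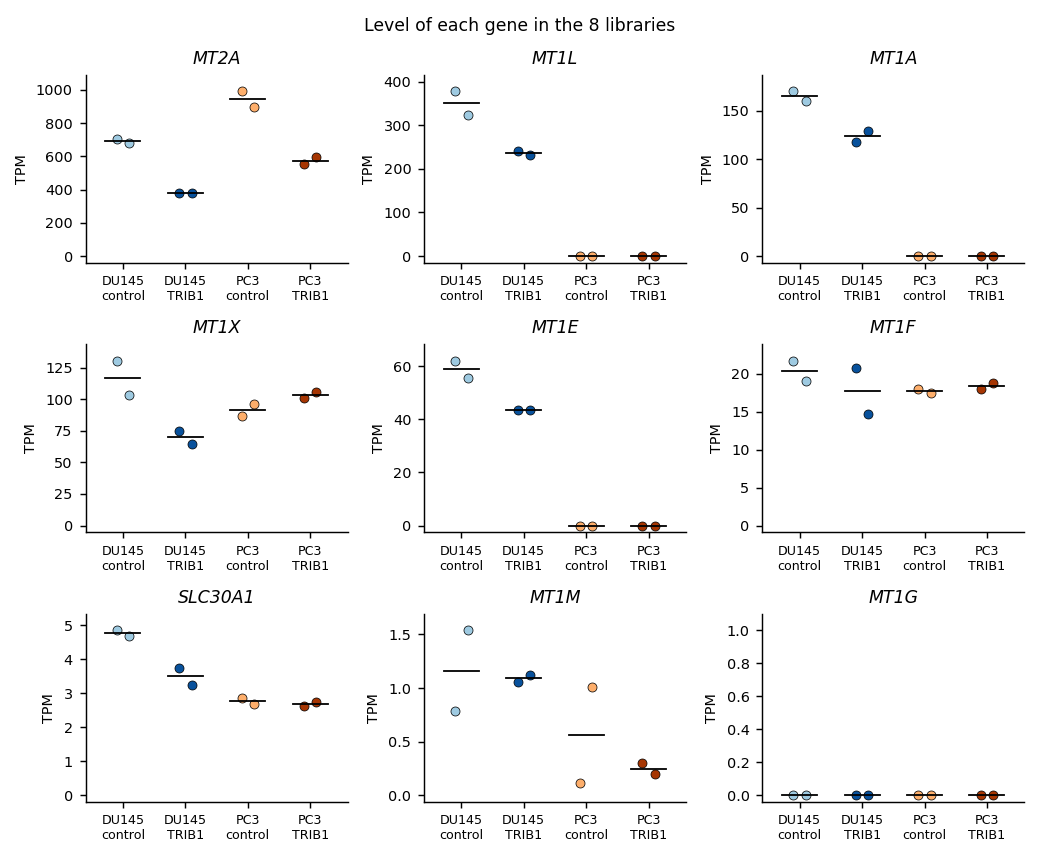
Level of each of the 9 genes in each library, in TPM, with points for libraries, short lines for group means and 1 panel per gene on its own axis. MT2A was lower with TRIB1 in both lines, MT1A and MT1E were listed at 0 in PC3, and MT1G was listed at 0 in every library.

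MT1X, an inducible family member, had a lower mean with TRIB1 in DU145 and a higher one in PC3. It was at 131 and 103 TPM in DU145 control and at 74.9 and 64.8 TPM in DU145 TRIB1. The PC3 controls had 86.9 and 96.6 TPM, and the PC3 TRIB1 libraries 101 and 106 TPM. The TRIB1 libraries were therefore both below the controls in DU145 and both above them in PC3. Neither change passed the test: the log2 change was -0.73 in DU145 (SE 0.13, limma adjusted p = 0.055) and 0.17 in PC3 (SE 0.13, adjusted p = 0.456). The difference between the lines did pass, at -0.90 (SE 0.19, adjusted p = 0.0403). That call did not last: it was lost without any 1 library other than DU145 control 2, with adjusted p from 0.0713 to 0.134, and was at -0.80 (adjusted p = 0.111) without DU145 TRIB1 library 2.

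MT1L, MT1A and MT1E, which lie side by side with MT1M in the middle of the cluster, were abundant in DU145 and almost absent from PC3. MT1L, the noncoding member, had the second highest level of the family in DU145, at 378 and 323 TPM in the controls and 241 and 232 TPM with TRIB1. It fell by 0.56 on the log2 scale (SE 0.10, limma adjusted p = 0.0475), to 67.3% of the control mean, with no overlap. This call lies at the threshold and was lost without any 1 library other than DU145 control 2, with adjusted p from 0.0639 to 0.148. In PC3, MT1L was listed at 0 in both controls and at 0.410 and 0.405 TPM with TRIB1. The fit gave this a log2 change of 0.49 (adjusted p = 0.0228), which is a step from a listed 0 to under 1 TPM. No fold can be given, and the fitted size followed the pseudocount, at 0.11 with 5 (adjusted p = 0.442) and 2.34 with 0.1 (adjusted p = 0.00113). The call was also lost without any 1 of the 4 PC3 libraries, with adjusted p from 0.0564 to 0.0871. The difference of the MT1L changes between the lines was -1.06 (SE 0.14, adjusted p = 0.0118), and from -2.91 to -0.67 over the alternatives, since it rests on PC3 controls listed at 0.

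MT1A, whose protein binds zinc and copper, stood at 170.6 and 159.9 TPM in DU145 control and at 118 and 129 TPM in DU145 TRIB1. Its DU145 groups did not overlap, but the change of -0.42 (SE 0.09, limma adjusted p = 0.0866) did not pass the test. MT1E, its close relative, was at 62.1 and 55.7 TPM in DU145 control and at 43.6 TPM in both DU145 TRIB1 libraries. Again the groups did not overlap, and the log2 change was -0.42 (SE 0.11, adjusted p = 0.119). By TPM means, MT1A was at 74.8% and MT1E at 74.0% of the DU145 control level. Both genes were listed at 0 in all 4 PC3 libraries, so nothing can be said of TRIB1 there.

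None of the remaining metallothioneins passed the test in either line. MT1F was at 21.7 and 19.0 TPM in DU145 control, 20.8 and 14.7 in DU145 TRIB1, 17.9 and 17.4 in PC3 control and 17.9 and 18.7 in PC3 TRIB1. Its groups overlapped in both lines, with log2 changes of -0.21 (limma adjusted p = 0.574) and 0.05 (adjusted p = 0.912). Between the control groups its level also differed less than that of any other tested member, by -0.19 on the log2 scale. MT1M was at 0.783 and 1.54 TPM in DU145 control and at 1.06 and 1.12 in DU145 TRIB1. Its PC3 control values were 0.110 and 1.01 TPM, and its PC3 TRIB1 values 0.302 and 0.194 TPM. In both lines the control replicates differed by more than the group means did, and the adjusted p was 1 in DU145 and 0.688 in PC3. MT1G was listed at 0 in every library and could not be tested, so 8 of the 9 members entered the fit.

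SLC30A1 was the least abundant member to be listed above 1 TPM in every library. It was at 4.85 and 4.69 TPM in DU145 control and at 3.74 and 3.25 TPM in DU145 TRIB1. In PC3 control it was at 2.86 and 2.68 TPM, and in PC3 TRIB1 at 2.61 and 2.74 TPM. The DU145 groups did not overlap and the PC3 groups did. The log2 change was -0.36 in DU145 (SE 0.13, limma adjusted p = 0.238) and -0.04 in PC3 (SE 0.13, adjusted p = 0.926). Neither passed the test, and the difference between them was -0.33 (SE 0.19, adjusted p = 0.347).

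Counted together, 2 of the 8 tested members fell in DU145 (MT2A and MT1L) and none rose, where 2.01% of all tested genes fell and 0.712% rose. In PC3, 1 member fell (MT2A) and 1 rose (MT1L), where 9.33% of tested genes fell and 7.67% rose. MT1L was under 1 TPM in every PC3 library and was tested there only through its DU145 level. With the PC3 groups alone, MT1L was not among the 4 members tested. For the difference between the lines, 2 members passed, both negative (MT1L and MT1X), where 5.36% of tested genes passed as negative and 4.01% as positive. The median log2 change of the members was -0.42 in DU145, beside -0.04 over all tested genes, and 0.00 in PC3, beside -0.01. That PC3 median is the value of MT1A and MT1E, listed at 0 in all 4 PC3 libraries. It therefore does not describe the members expressed there. In DU145 both TRIB1 libraries lay below both controls for 6 members (MT1A, MT1E, MT1L, MT1X, MT2A and SLC30A1), as they did for 29.7% of all tested genes, and no member lay above both, beside 17.6%. In PC3 this held for MT2A alone, beside 29.8% of tested genes, while MT1L and MT1X lay above both controls, beside 24.5%.

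**Figure D2:**
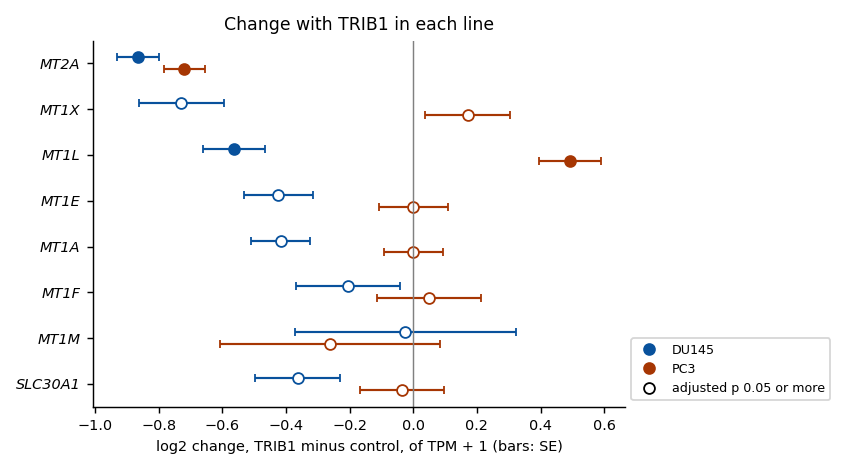
Log2 change of each tested gene with TRIB1 in DU145 and in PC3, with bars of 1 standard error from the limma fit and filled points where the adjusted p was below 0.05. MT2A lies on the same side in both lines (-0.86 and -0.72), and MT1X on opposite sides (-0.73 and 0.17).

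The total of the metallothionein signal was lower with TRIB1 in both lines, though in PC3 this was the fall of MT2A alone. The 8 metallothionein members summed to 1468 and 1343 TPM in DU145 control and to 878 and 865 TPM in DU145 TRIB1. In PC3 control they summed to 1097 and 1012 TPM, and to 671 and 719.6 TPM in PC3 TRIB1. The sums did not overlap in either line, and no test was made of them. In PC3 the mean of MT2A went from 945 TPM in control to 573 TPM with TRIB1. The mean of MT1X went there from 91.8 to 103 TPM and that of MT1F from 17.7 to 18.3 TPM. Every other metallothionein member had PC3 means under 1 TPM. The lines built this total differently. MT2A made up 47.9% and 50.7% of it in DU145 control, and 90.4% and 88.6% in PC3 control. With TRIB1 its share was 43.2% and 43.9% in DU145 and 82.2% and 82.6% in PC3, in each case below both controls. The level of MT1X was 8.76% and 10.8% of that of MT2A in PC3 control, and 18.2% and 17.8% in PC3 TRIB1. In DU145 it was 18.6% and 15.2% in the controls and 19.7% and 17.1% with TRIB1, so the groups overlapped there and not in PC3. A ratio within a library shows only unequal change of its parts.

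The control libraries were then compared between the lines, and these are the same libraries that the TRIB1 comparisons used. Of the 8 tested members, 4 were lower in PC3 control than in DU145 control (MT1A, MT1E, MT1L and SLC30A1) and 1 was higher (MT2A), where 28.4% of all tested genes were lower and 18.6% higher. MT2A was higher in PC3 by 0.45 on the log2 scale (SE 0.07, limma adjusted p = 0.00233). SLC30A1 was lower by a log2 difference of -0.61 (SE 0.13, adjusted p = 0.0114). With PC3 control listed at 0, MT1A, MT1E and MT1L entered the test only through their DU145 levels. Lower in PC3 was therefore the only direction open to them in this count. Their fitted sizes depend on the pseudocount for the same reason, and none is given. MT1X (-0.34, adjusted p = 0.0853), MT1F (-0.19, adjusted p = 0.385) and MT1M (-0.51, adjusted p = 0.28) did not pass. The median over all tested genes was itself -0.18 here, and median-of-ratios scaling moved it by 0.17. The order of levels in DU145 control was MT2A, MT1L, MT1A, MT1X, MT1E, MT1F, SLC30A1 and MT1M. In PC3 control it was MT2A, MT1X, MT1F, SLC30A1 and MT1M. In both orders the values of neighbouring genes did not overlap.

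The members listed at 0 in PC3 control but not in DU145 control lay in the stretch between MT2A and MT1F. The order follows the table's own listed intervals, whose build is not stated, with the distance of each lower end from that of MT2A. After MT2A came MT1L (9.3 kb), MT1E (17.3 kb), MT1M (24.0 kb), the pseudogene MT1JP (27.5 kb) and MT1A (30.5 kb). Then came the noncoding MT1DP (35.5 kb), the pseudogene MT1CP (40.0 kb), MT1B (43.7 kb) and MT1F (49.5 kb). Last were MT1G (58.5 kb), MT1H (61.6 kb) and MT1X (74.2 kb). In PC3 control, MT1L, MT1E, MT1A and MT1DP were listed at 0 in both libraries, and MT1M and MT1JP were at 1.01 TPM or less. MT2A on one side and MT1F and MT1X on the other were expressed, with PC3 control means of 945, 17.7 and 91.8 TPM. In DU145 control the same stretch held means of 351 TPM (MT1L), 58.9 (MT1E), 165 (MT1A) and 70.4 (MT1DP). MT1M and MT1JP were low there too, at means of 1.16 and 0.862 TPM. MT1CP and MT1B were listed at 0 in PC3 control and at means of 0 and 0.251 TPM in DU145 control. MT1G and its neighbour MT1H were listed at 0 in both lines. The flanking genes were expressed in both lines, BBS2 at control means of 30.7 and 17.9 TPM and NUP93 at 62.5 and 43.6 TPM in DU145 and PC3.

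**Figure D3:**
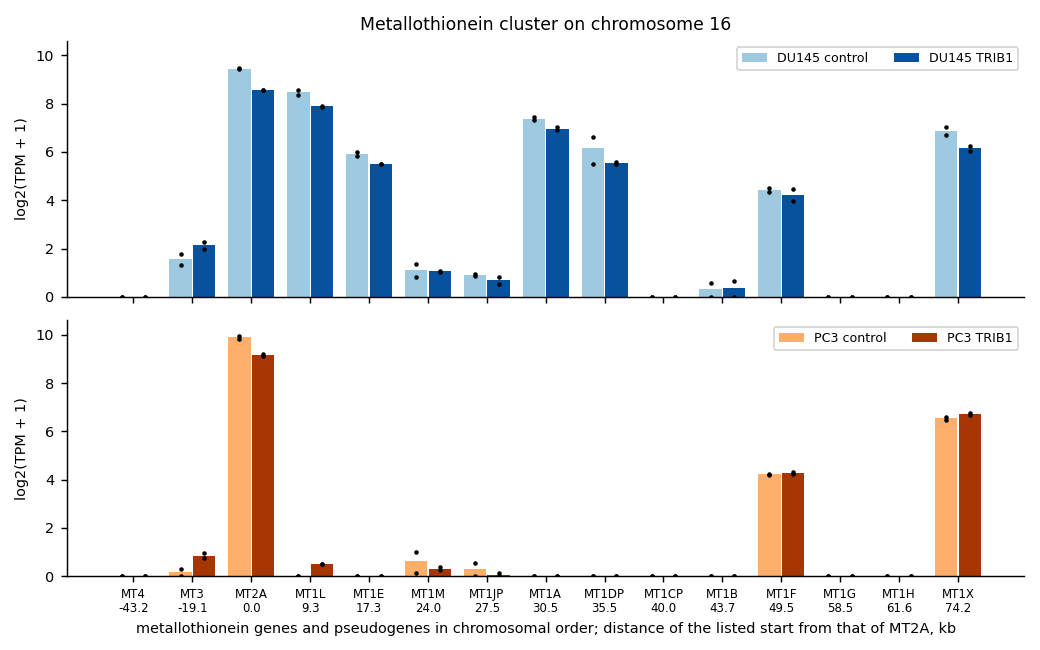
Level in log2(TPM + 1) of the metallothionein genes and pseudogenes of the chromosome 16 cluster in their listed order, with DU145 above and PC3 below, bars for group means and points for libraries, and the distance of each start from that of MT2A in kb under its name. In PC3 the genes between MT2A and MT1F are at or near 0, and MT1G and MT1H are at 0 in both lines. MT1M, MT1JP, MT1CP and MT1B are also low in DU145.

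Of 12 other metallothionein genes and pseudogenes in the table, 4 were tested and none passed in either line. MT3, the form known from brain, was at 2.42 and 1.51 TPM in DU145 control and at 3.0 and 3.79 TPM in DU145 TRIB1. The PC3 control libraries had 0 and 0.241 TPM, and the PC3 TRIB1 libraries 0.941 and 0.688 TPM. Its level was higher with TRIB1 in every library of both lines, opposite to MT2A, but the changes of 0.58 (limma adjusted p = 0.302) and 0.70 (adjusted p = 0.116) did not pass. MT1DP, at 96.2 and 44.6 TPM in DU145 control and 46.3 and 44.4 TPM in DU145 TRIB1, differed mainly between its own controls.

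MTF1, the zinc-sensing factor of this pathway, was too variable to read. It was at 9.54 and 9.09 TPM in DU145 control and at 4.94 and 12.0 TPM in DU145 TRIB1. Its PC3 control values were 3.66 and 10.7 TPM, and its PC3 TRIB1 values 7.92 and 9.17 TPM. Its groups overlapped in both lines, with log2 changes of -0.23 (SE 0.52, limma adjusted p = 0.893) and 0.36 (SE 0.52, adjusted p = 0.716). Of the 8 genes of metal-responsive transcription and MTF1 targets, none passed in DU145. Over all tested genes, 2.01% fell and 0.712% rose in DU145, and 9.33% fell and 7.67% rose in PC3. In PC3, TXNRD1 (thioredoxin reductase, also an antioxidant response gene) fell by 0.91 (adjusted p = 0.000895), from a mean of 616 to 327 TPM. SELENOH, a selenoprotein, rose by 0.33 (adjusted p = 0.0344).

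The other zinc transporters were read beside SLC30A1. SLC30 proteins carry zinc out of the cytosol and SLC39 (ZIP) proteins carry it in. Of 6 other SLC30 genes tested, none passed in DU145 and 1 rose in PC3. This was SLC30A7, which loads zinc into the secretory pathway, with means of 15.4 ± 2.37 TPM and 25.5 ± 0.496 TPM (SD, n = 2), a log2 change of 0.70 (limma adjusted p = 0.0184). Of 12 SLC39 genes tested, 1 fell and none rose in DU145, and 2 fell and 2 rose in PC3. The shares over all tested genes were 2.01% down and 0.712% up in DU145, and 9.33% down and 7.67% up in PC3.

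SLC39A8 (ZIP8), an importer of zinc, manganese and iron, passed in both lines and in opposite directions. It was at 30.4 and 30.2 TPM in DU145 control and at 16.9 and 16.7 TPM in DU145 TRIB1, and it fell by 0.81 (SE 0.07, limma adjusted p = 0.00893). In PC3 control it was at 11.4 and 10.8 TPM, and in PC3 TRIB1 at 15.5 and 14.8 TPM, and it rose by 0.42 (adjusted p = 0.0163). The groups overlapped in neither line, and the difference between the changes was -1.23 (adjusted p = 0.00469). With the groups of a line fitted alone, its adjusted p was 0.069 in DU145 and 0.0834 in PC3, and the call in each line was lost. Its pattern was thus that of MT1X by direction, with calls where MT1X had none. SLC39A1 (ZIP1), described as the main zinc importer of prostate cells, fell in PC3 from 137 to 89.8 TPM (-0.61, adjusted p = 0.00152), with a value of -0.24 (adjusted p = 0.0531) in DU145. SLC39A6 also fell in PC3, from 21.3 to 13.8 TPM (-0.59, adjusted p = 0.00803). SLC39A4, a plasma membrane zinc importer, rose in PC3 from 231 to 381 TPM (0.72, adjusted p = 0.0355). Importers thus went both ways in PC3.

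**Figure D4:**
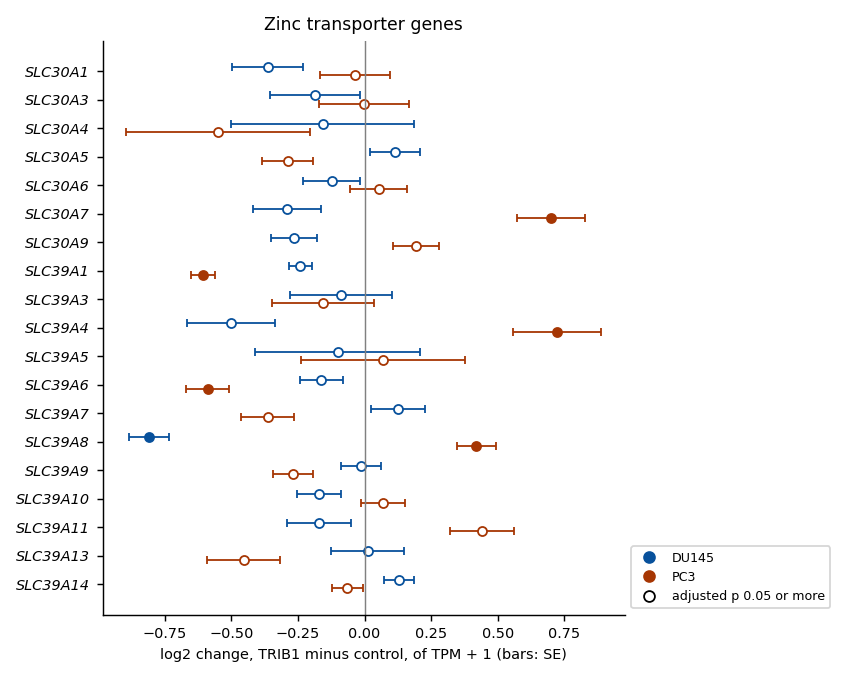
Log2 change with TRIB1 of the tested SLC30 and SLC39 genes in DU145 and PC3, with bars of 1 standard error and filled points where the adjusted p was below 0.05. SLC39A8 lies on opposite sides in the lines (-0.81 and 0.42), and SLC30A1 passed in neither.

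Copper and iron share carriers with zinc, and metallothioneins bind copper, so their genes were read too. Of 14 copper genes, 1 fell and none rose in DU145, and 1 fell and 3 rose in PC3. The shares over all tested genes were 2.01% down and 0.712% up in DU145, and 9.33% down and 7.67% up in PC3. STEAP2, a metalloreductase known from prostate, fell in both lines, by 0.96 in DU145 (limma adjusted p = 0.0264) and by 0.58 in PC3 (adjusted p = 0.0321). Its relative STEAP4 rose by 2.05 in PC3 (adjusted p = 0.00308), from a mean of 0.925 to 6.96 TPM. The copper chaperone CCS rose by 0.40 (adjusted p = 0.0104) and COX17, which passes copper to mitochondria, by 0.26 (adjusted p = 0.0367), both in PC3. Of 8 iron genes, none passed in DU145 and 2 rose in PC3, the ferritin chains FTH1 (0.76, adjusted p = 0.00333) and FTL (0.34, adjusted p = 0.0139).

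Metallothionein genes are also known to respond to glucocorticoids, heavy metal stress and STAT3. The counts below stand beside 2.01% of all tested genes down and 0.712% up in DU145, and 9.33% down and 7.67% up in PC3. A set of 8 genes held the glucocorticoid receptor, its co-chaperone FKBP4 and its targets. Of these, 1 fell in DU145, the receptor gene NR3C1 (-0.41, limma adjusted p = 0.0461). In PC3, 3 rose, namely FKBP4 (0.50, adjusted p = 0.0189) and the targets DUSP1 (0.79, adjusted p = 0.00205) and SGK1 (0.54, adjusted p = 0.0386). The targets FKBP5, TSC22D3, PER1 and KLF9 did not pass in PC3. Of 9 heat shock genes, none passed in DU145. In PC3, the co-chaperone BAG3 fell by 0.94 (adjusted p = 0.00842) and the small heat shock protein HSPB1 by 0.40 (adjusted p = 0.0318), while HSPA8 rose by 0.29 (adjusted p = 0.0338). The 8 genes of STAT3 and its feedback also held the upstream receptors IL6R and IL6ST and the upstream kinase JAK1. Of these 8, JAK1 fell by 0.53 in DU145 (adjusted p = 0.0317) and rose by 0.48 in PC3 (adjusted p = 0.0125). PIM1, a kinase induced by STAT3, rose by 0.57 in PC3 (adjusted p = 0.0435). STAT3 itself was at means of 142 and 97.1 TPM in DU145 control and TRIB1 (adjusted p = 0.134) and under 1 TPM in PC3.

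Markers of cell identity moved with TRIB1 in PC3 as well, where 9.33% of all tested genes fell and 7.67% rose. All 4 simple epithelial markers rose there, by 1.54 (KRT8), 1.52 (KRT18), 1.78 (EPCAM) and 1.53 (CDH1) on the log2 scale, with limma adjusted p between 0.000725 and 0.00199. Their summed level was 517 to 541 TPM in PC3 control and 1546 to 1585 TPM in PC3 TRIB1, beside 1148 to 1199 and 1056 to 1127 TPM in DU145. Of the luminal markers TMPRSS2 rose by 0.65 (limma adjusted p = 0.0445) and FOLH1 fell by 1.04 (adjusted p = 0.0312) in PC3. LUM of the fibroblast list rose there by 1.23 (adjusted p = 0.0315). FOLH1 and LUM were low. From PC3 control to TRIB1 the mean went from 1.15 to 0.0466 TPM for FOLH1 and from 0.858 to 3.26 TPM for LUM. Their fitted sizes ran from -3.17 to -0.286 and from 0.499 to 1.94 over the alternatives. Of the other fibroblast markers DCN did not pass in PC3, and PDGFRA and COL3A1 were too low to be tested. No marker named here passed in DU145. The part of these shifts in the values of the metallothioneins was not tested.

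The genes whose levels ran most closely with a member were taken from 6781 genes, by Pearson's r of log2(TPM + 1) over the 8 libraries. With MT2A these were PPAP2B (r = 0.990), C4orf3 (0.988), STEAP2 (0.981), LAMP3 and LPIN3 (0.970 each). With MT1X they were C3orf58 (0.957), NTN4 (0.956), ELF3 (0.950), CEBPB (0.937) and HES4 (0.926). With SLC30A1 they were ZNF169 (0.993), ATXN10 (0.992), ARFGEF2 (0.987), OLFM1 (0.986) and RAB38 (0.985). The 8 points share 4 groups, so these values describe group means as much as libraries. Their changes with TRIB1 follow from that choice and are given as a description. Of the MT2A set, PPAP2B, C4orf3, STEAP2 and LPIN3 fell in both lines, and LAMP3 passed in neither. In the MT1X set, ELF3, an epithelial transcription factor, fell by 1.90 in DU145 (limma adjusted p = 0.00206) and rose by 0.40 in PC3 (adjusted p = 0.0327). CEBPB, which encodes a C/EBP factor, was at means of 200.4 and 85.2 TPM in DU145 control and TRIB1 and at 110.3 and 137 TPM in PC3, and passed in neither line.

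The calls of genes other than the members were refitted without each library in turn. The calls that held in all 8 refits were those of SLC39A8 and ELF3 in DU145 and of TXNRD1, SLC39A1, SLC39A6, STEAP4, FTH1, DUSP1, KRT8, KRT18, EPCAM and CDH1 in PC3. Losing only PC3 TRIB1 library 1 ended the PC3 calls of SLC39A8 (adjusted p = 0.059) and CCS (0.0507), and losing only library 2 ended those of C4orf3 (0.0506) and LPIN3 (0.0565). Losing either of them ended those of BAG3 (up to 0.064) and JAK1 (up to 0.0666). With PC3 control 2 added to that pair, the same held for SLC30A7 (up to 0.0969) and FTL (up to 0.0872), and with PC3 control 1 for PPAP2B (up to 0.0904). SELENOH (up to 0.146), COX17 (up to 0.13) and HSPB1 (up to 0.16) also needed both DU145 controls besides PC3 control 2 and that pair. FKBP4 (up to 0.0979) needed them besides PC3 control 1 and the pair, and LUM (up to 0.107) besides the pair. FOLH1 (up to 0.0782) needed all 4 PC3 libraries. SLC39A4 (up to 0.174), SGK1 (up to 0.166), PIM1 (up to 0.184) and TMPRSS2 (up to 0.165) needed these and both DU145 controls, and ELF3 (up to 0.148) these and both DU145 TRIB1 libraries. In PC3 the call of STEAP2 (up to 0.124) held only without PC3 control 2, and that of HSPA8 (up to 0.163) only without PC3 control 1. In DU145, STEAP2 (up to 0.115), NR3C1 (up to 0.126), C4orf3 (up to 0.134) and PPAP2B (up to 0.12) lost their calls without any 1 DU145 library or PC3 TRIB1 library. The DU145 call of JAK1 (up to 0.093) held only without DU145 control 2, and that of LPIN3 (up to 0.167) only without DU145 TRIB1 library 1.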

How the data were processed

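Gene levels were measured by RNA sequencing of total RNA from 8 libraries, 2 in each of 4 groups taken from the sample titles. Cells were kept at 37 °C in 5% CO2, per the labels' protocols. The authors deposited 1 table of TPM values for 57905 genes, and each column sums to 1000000. Tools named in the submitters' processing notes were edgeR, DESeq, HTSeq and TopHat2 2.0.14, with hg38 as the build. Which tool made the TPM values, from which annotation and with which strand setting, is not given in the sources used here, so overlapping genes on opposite strands cannot be told apart. The listed intervals differ from GENCODE 29 on GRCh38 and were not converted.

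R 4.3.3 and limma 3.58.1, using a mean-variance trend, were applied to log2(TPM + 1) of the 25982 genes that averaged 1 TPM or more in a group. All 8 libraries entered 1 fit of 4 group means (4 residual and 1.89 prior degrees of freedom). The Benjamini-Hochberg adjustment ran over all genes tested. The fit was tested on simulated data, with the series' cutoff of fold and adjusted p. The planted changes were larger than those of the members with TRIB1, so calls of that size on adjusted p alone were not tested. TPM values are shares of a fixed total, so a gene that takes more of it lowers the others. Promoter letters came from RefSeq (GRCh38.p14), coding bases and transcripts from GENCODE 29.

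Some markers of cell identity and sequences are not reported here. The members and lists were chosen with earlier results of these data known. Named were TRIB1, all members, MTF1, up to 4 genes per list and line with the smallest p among those past the test, and the 5 genes most correlated with MT2A, MT1X and SLC30A1, with at least 5 TPM in a group and an SD of at least 0.3. Alternatives were other pseudocounts, no filter, other scalings, the groups alone, a replicate block, no trend and leaving out each library.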

Additional observations from a re-analysis of the deposited data

Results flagged for a closer look

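The change with TRIB1 in DU145 minus that in PC3, on the log2 scale, passed the limma test of that difference (adjusted p below 0.05) for 2 members and for other genes named above. It was -1.06 for MT1L, whose PC3 controls are listed at 0, and -0.90 for MT1X, a call lost without any 1 library other than DU145 control 2. Among zinc transporters it was -0.99 for SLC30A7, 0.36 for SLC39A1, -1.23 for SLC39A4 (-1.225 before rounding) and -1.23 for SLC39A8 (-1.229). Among copper and iron genes it was -0.55 for CCS, -2.54 for STEAP4, -1.11 for FTH1 and -0.49 for FTL. Among genes of metal, hormone and stress responses it was -0.51 for SELENOH, 0.99 for TXNRD1, -0.48 for NR3C1, -0.82 for DUSP1, -1.04 for SGK1, 1.01 for BAG3 (1.015) and -1.01 for JAK1. Among markers of cell identity it was -1.67 for KRT8, -1.59 for KRT18, -1.41 for EPCAM and -1.70 for CDH1. Among the genes correlated with MT1X it was -1.10 for NTN4, -2.30 for ELF3 and -1.56 for CEBPB. Without each library in turn, the test of the difference still passed for MT1L, TXNRD1, SLC39A8, STEAP4, FTH1, DUSP1, JAK1, KRT8, KRT18, EPCAM, CDH1 and ELF3, and each of the others lost it without at least 1 library.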

How the results depend on the processing

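MT2A kept its direction and its call in both lines under all 16 alternatives, with adjusted p from 0.00565 to 0.047 in DU145 and from 0.00244 to 0.0278 in PC3. The number of members past the test in DU145 went from 2 to 1 with no filter, a pseudocount of 0.1, median-of-ratios scaling, upper-quartile scaling, the 2 groups alone, the replicate block and no trend. In PC3 it went from 2 to 1 with a pseudocount of 5 and with the groups alone, where 4 members were tested. For the difference it went from 2 to 1 with no filter, upper-quartile scaling, the replicate block and no trend. Without 1 library it ranged from 1 to 2 in DU145, in PC3 and for the difference, and from 5 to 6 for the controls, where the count was otherwise 5. The cause was not tested.

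Same-numbered libraries did not deviate together, with correlations from -0.0415 to 0.0137. This does not show whether they were made together. With the replicate block, MT1L in DU145 had an adjusted p of 0.0868 and MT1X for the difference 0.0694.

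Values that turned their sign had not passed the test. With median-of-ratios scaling these were MT1M in DU145 (0.016), SLC30A1 in PC3 (0.011) and MT1F between controls (0.018), and with upper-quartile scaling MT1M in DU145 (0.0070). Without 1 library they were MT1M in DU145 (-0.28 to 0.23), in PC3 (-0.69 to 0.17) and for the difference (-0.19 to 0.67), MT1F in DU145 (-0.44 to 0.031), and MTF1 in DU145 (-0.80 to 0.34) and PC3 (-0.30 to 1.03). MT1A in DU145 passed with a pseudocount of 5 (adjusted p = 0.0454), and between controls MT1X without DU145 control 2 (adjusted p = 0.0358) and MT1M without PC3 control 2 (-0.94, adjusted p = 0.0496). The count of all genes past the test in DU145 went from 707 to 52 with the groups alone, 223 with the block and 253 without a PC3 TRIB1 library. In PC3 it went from 4415 to 2156 with the groups alone and to 2091 or 2042 without a PC3 TRIB1 library. For the difference it went from 2434 to 1461 with the block and to between 1275 and 1420 without 1 DU145 control or PC3 TRIB1 library.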

Other observations

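RP11-249C24.10, a long noncoding RNA listed on the strand opposite to MT2A, was lower with TRIB1 in both lines, as MT2A was. Its listed interval begins at 56643413, just past the upper end of the MT2A interval at 56643409. The gene was singled out after its values were seen. It ranged from 1.30 to 2.08 TPM in DU145 control and from 0 to 0.329 TPM in DU145 TRIB1. In PC3 it ranged from 1.69 to 1.79 TPM in the controls and from 0.335 to 0.653 TPM with TRIB1. The groups overlapped in neither line, at levels near the limit set for testing. Both TRIB1 libraries lay below both controls for 29.7% of all tested genes in DU145 and 29.8% in PC3. No test result is given for this RNA. Its listed interval does not overlap that of MT2A. Without a strand setting, its reads cannot be told from any MT2A reads past the listed end.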
